A study of Mus musculus with 22 samples.

Results

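The 4 libraries described here compare cells carrying the W330R form of the DNA methyltransferase DNMT3A with WT cells before any differentiation was induced. They are 2 WT and 2 W330R libraries of undifferentiated cells, chosen by their labels, of 22 libraries in the series. The cells are C3H 10T1/2, an established line of mouse mesenchymal stem cells with the capacity to form fat cells, grown in medium with fetal bovine serum and given no treatment. The other 18 libraries come from WT, W330R and the double mutant W330R-R181E on days 2, 4 and 6 after adipocyte medium (isobutylmethylxanthine, dexamethasone, insulin and troglitazone, later insulin alone). All of the lines express a form of DNMT3A1, the long isoform, according to the design text of the series. The promoter or vector of that expression, the number of clones and the state of the endogenous gene are not given in the sources used here. The labels do not say whether the 2 libraries of a genotype are separate cultures or lines. P-values therefore measure only a spread between libraries, which may be technical, and genotype and cell line cannot be told apart.

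DNMT3A places new methyl groups on cytosines that are followed by guanine (CG sites) and is guided to chromatin by several reader domains. One of them is the PWWP domain, which binds histone H3 methylated at lysine 36 and holds the tryptophan that W330R replaces. In mesenchymal cells, DNA methylation is laid over promoters, enhancers and gene bodies, while signals such as BMP, TGF-beta, WNT and Hedgehog ligands set the choice between fat, bone, cartilage and muscle. The libraries here measure RNA only, and no methylation was measured in them.

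The 4 undifferentiated libraries held 11940210 and 23727021 counts for WT and 12615645 and 8895715 for W330R. Mitochondrially encoded genes took 6.54 to 6.98% of the counts, and the 20 most abundant genes took 12.1 to 13.1%. The 2 libraries of a genotype were very alike. The median absolute difference between them was 0.071 on the log2 CPM scale (CPM are counts scaled to the library size after TMM normalization) for WT and 0.078 for W330R, against 0.14 to 0.31 for the 9 conditions of days 2 to 6. They were nevertheless not identical, and 15.5% of genes in WT and 13.5% in W330R differed between the 2 libraries by more than sampling noise at p under 0.05 (chi-squared test). Noise alone passes this threshold in some genes, and the comparison does not tell separate cultures from repeated preparations of the same RNA. In the deposited table the undifferentiated columns are named in another way than the later ones, so that stage and naming cannot be told apart.

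**Figure D1:**
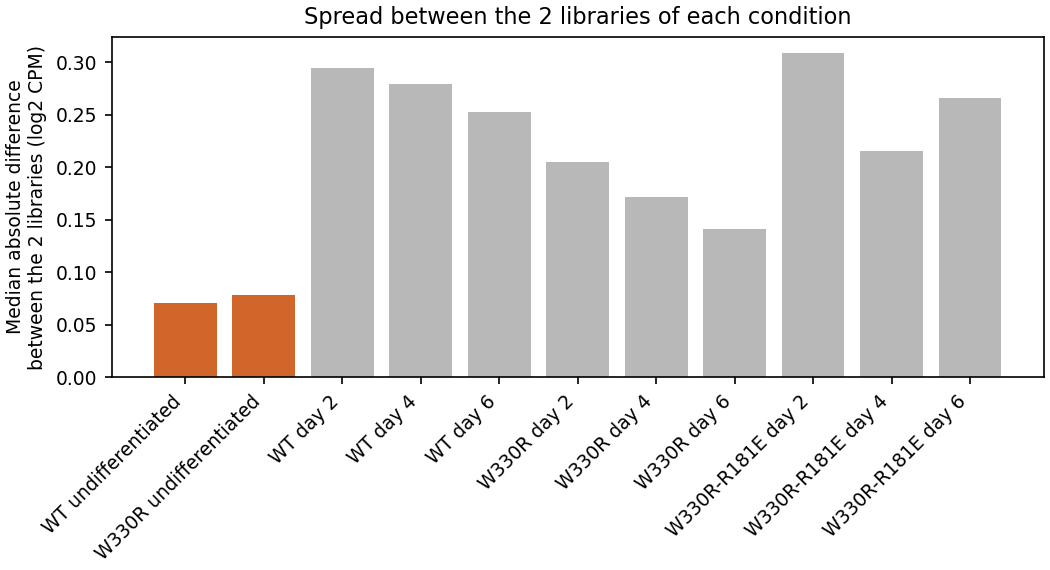
Bars give the median absolute difference between the 2 libraries of each of the 11 conditions, in log2 CPM, over genes with a mean of at least 2 CPM. The 2 undifferentiated conditions (orange) lie at 0.071 and 0.078, below the lowest of the other conditions (grey, 0.14).

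Because of this difference in spread, counts of changed genes are given for a pair of fits. The first fit (edgeR's quasi-likelihood test) covers all 22 libraries, which share 1 estimate of the spread, and the second covers the 4 undifferentiated libraries alone, with their own spread. The coefficient of variation between replicates (square root of the common dispersion) was 24.3% in the first and 4.63% in the second. Values of p and SE from the first fit therefore measure a spread shared with the later libraries, not that of the 4 alone. Genes with an adjusted p (Benjamini-Hochberg) under 0.05 count as called. Unless another fit is named, log2 fold changes are W330R minus WT from the fit of all 22 libraries, with their standard errors (SE).

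Undifferentiated W330R cells differed from WT in both directions. In the fit of all 22 libraries 254 of 14520 genes tested were called (1.75%), 115 of them higher in W330R (0.792%) and 139 lower (0.957%), and 1793 genes had an unadjusted p under 0.05. In the 4 libraries alone, 4194 of 11891 genes were called (35.3%), with 2051 higher (17.2%) and 2143 lower (18%). In all 254 genes the CPM of the groups did not overlap, as in 30.1% (higher) and 32.3% (lower) of all genes tested. All 247 genes of the first set that were tested alone were called there in the same direction, and the other 7 were not tested there. The changes of the first set were large, with a median absolute log2 fold change of 1.30, and 170 of the 254 genes changed at least 2-fold. Most of those called alone were small, with a median of 0.38, and 625 of the 4194 changed at least 2-fold. Small changes are harder to call with the larger spread of the first fit, so these sizes depend on the spread that each fit used. Leaving out 1 library gave 58 calls without WT replicate 1, 55 without WT replicate 2, 52 without W330R replicate 1 and 48 without W330R replicate 2 in the fit of all libraries. In the undifferentiated libraries alone the same steps gave 3161, 2922, 2442 and 2628.

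**Figure D2:**
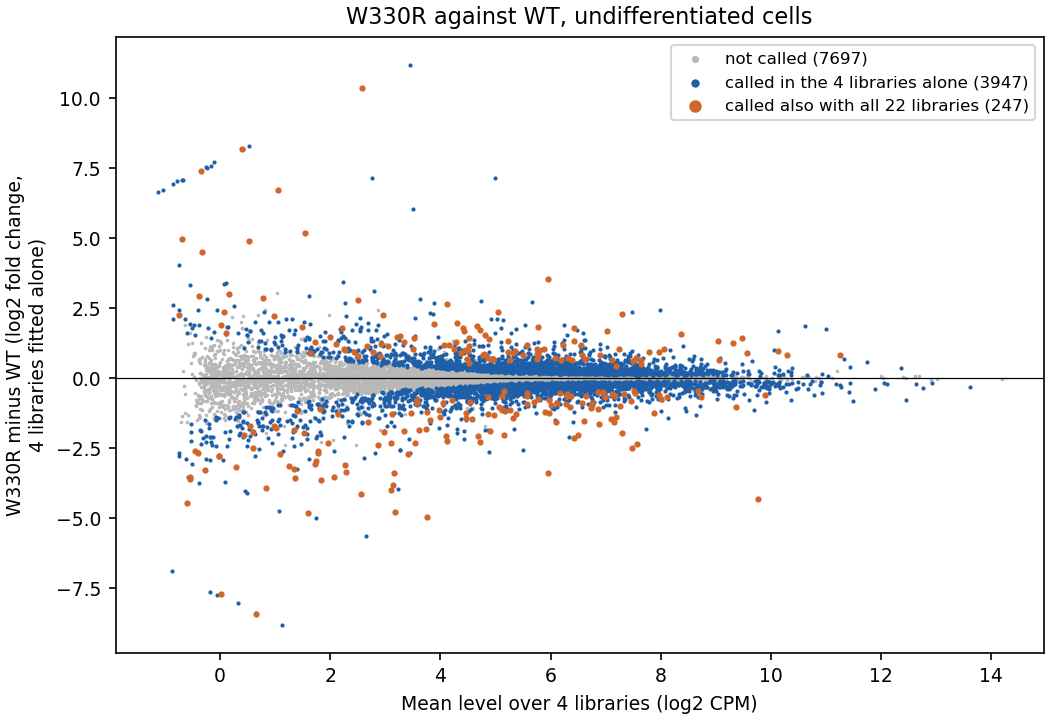
Each point is 1 of the 11891 genes tested in the 4 undifferentiated libraries alone, with its mean level in log2 CPM on the x axis and the log2 fold change of W330R over WT on the y axis. The 247 genes called also in the fit of all 22 libraries (orange) lie far from 0 on either side, and the 3947 called in the 4 libraries alone (blue) reach much closer to 0. Points of genes with a genotype at 0 counts depend on the prior count of the fit.

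The transcript of the enzyme itself was not called in either fit. Dnmt3a had 347 and 345 CPM in WT and 326 and 316 CPM in W330R, a log2 fold change of -0.11 ± 0.40 (SE, adjusted p = 0.995 with edgeR in the fit of all 22 libraries, 0.0641 in the 4 libraries alone). Both W330R libraries lay slightly below both WT libraries. The counts are per gene and do not tell the mutant from the WT allele, so they do not check the labels. Dnmt1, which copies methylation after replication, had 169 and 165 CPM in WT and 163 and 163 CPM in W330R (adjusted p = 1.00 with edgeR). Dnmt3b, the other de novo enzyme, had 3.08 and 3.03 CPM in WT and 4.82 and 4.28 CPM in W330R, and Dnmt3l, the cofactor without catalytic activity, had 0 counts in all 4 libraries. Of 17 tested genes of the DNA methylation machinery none was called in the fit of all libraries (against 1.75% of all genes). In the 4 libraries alone 29.4% of them were called, against 35.3% of all genes, 3 higher and 2 lower. One of these was Tet1, which oxidises methylated cytosine, with 4.23 and 4.01 CPM in WT and 12.8 and 11.6 CPM in W330R (adjusted p = 0.000251 with edgeR in the 4 libraries alone, 0.382 in all 22, named after its values were seen).

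Among the 12 largest increases of well detected called genes, Fam107a, an actin-associated stress protein, had 10.6 and 9.26 CPM in WT and 111 and 116 CPM in W330R. It was thus 11.4-fold higher in W330R (log2 fold change 3.52 ± 0.29, adjusted p = 5.40e-05 with edgeR). Sned1, a matrix protein, had 50.6 and 55.7 CPM in WT and 255 and 265 CPM in W330R (adjusted p = 0.0419 with edgeR). Aoc3, the vascular adhesion and amine oxidase protein that is also abundant in fat, had 10.1 and 11.1 CPM in WT and 56.1 and 54.1 CPM in W330R (adjusted p = 0.0015 with edgeR). The libraries of each genotype lay close together for both genes, and the means were 4.90-fold higher for Sned1 and 5.20-fold higher for Aoc3. G0s2, an inhibitor of the lipase that starts lipolysis, had 11.2 and 10.9 CPM in WT and 42.7 and 35.97 CPM in W330R (adjusted p = 0.0123 with edgeR). Srpx2, a secreted protein with sushi repeats, had 4.84 and 4.76 CPM in WT and 30.3 and 29.96 CPM in W330R (adjusted p = 0.0271 with edgeR). Gpm6b, a proteolipid of the plasma membrane, had 6.08 and 6.14 CPM in WT and 20.99 and 25.6 CPM in W330R (adjusted p = 0.0171 with edgeR). In each of these genes the higher WT library lay below the lower W330R library, which the choice of the genes required. The protease inhibitor-like gene Wfdc3 had 8.19 and 7.97 CPM in WT and 32.2 and 30.5 CPM in W330R, and Gm11870 and Cml1 rose 7.08-fold and 4.53-fold.

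Alb and Ifi47 were near 0 in WT, so that no fitted fold change is given for them. Alb, the serum albumin gene, had 1 and 0 counts in WT and 46 and 38 in W330R, a ratio of 136 (95% counting interval 23.7 to 5433), and at most 1 count in any later library. Ifi47, an interferon-inducible GTPase, had 2 and 3 counts in WT and 70 and 48 in W330R, a ratio of 38.2 (15.9 to 120). Such intervals, and the floors given for genes at 0, cover counting error only.

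**Figure D3:**
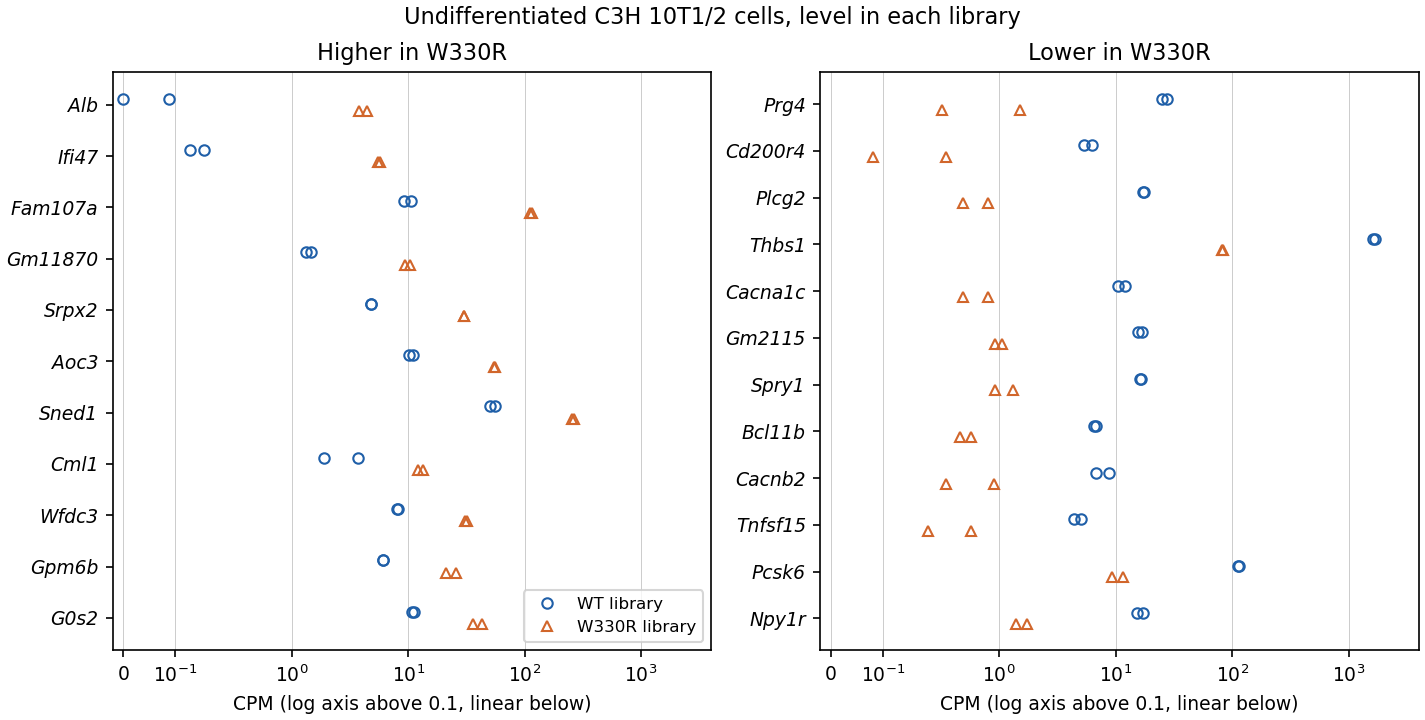
Levels in CPM (log axis above 0.1, linear below) of 11 of the 12 largest increases (left) and of the 12 largest decreases (right) among called genes with a mean of at least 2 CPM. Circles are the 2 WT libraries and triangles the 2 W330R libraries, which the choice of these genes required not to overlap. The abundant gene Thbs1 lies near 1661 CPM in WT and 83.02 CPM in W330R.

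The 12 largest decreases held a matrix regulator that was among the more abundant transcripts of WT cells. Thbs1, thrombospondin 1, which binds matrix and can activate latent TGF-beta, had 1687 and 1635 CPM in WT and 82.1 and 83.97 CPM in W330R. It was thus 20.01-fold lower in W330R (log2 fold change -4.32 ± 0.88, adjusted p = 0.0265 with edgeR, and 3.68e-09 in the 4 libraries alone). Pcsk6, a proprotein convertase that activates TGF-beta family ligands, had 112 and 114 CPM in WT and 11.5 and 9.37 CPM in W330R (log2 fold change -3.43 ± 0.29, adjusted p = 5.58e-05 with edgeR). Prg4, the lubricin gene of joint surfaces, had 27.5 and 24.8 CPM in WT and 0.327 and 1.504 CPM in W330R (adjusted p = 0.0306 with edgeR). The 2 W330R libraries differed more for Prg4 than for the other genes named here, and both lay far below WT.

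Also among the 12 largest decreases, Plcg2, a phospholipase C best known from B cells, had 17.2 and 17.6 CPM in WT and 0.49 and 0.81 CPM in W330R (log2 fold change -4.76 ± 0.58, adjusted p = 0.00149 with edgeR). Spry1, a feedback inhibitor of receptor tyrosine kinase signalling, had 16.6 and 16.3 CPM in WT and 1.31 and 0.925 CPM in W330R, 14.7-fold lower (adjusted p = 0.0015 with edgeR). In the GENCODE annotation of GRCm38, 21.8% of the 50-base sequences of Spry1 occur also in other gene models, most often in Gm42922. Cacna1c, the pore subunit of an L-type calcium channel, had 10.4 and 11.98 CPM in WT and 0.49 and 0.81 CPM in W330R, and its accessory subunit Cacnb2 had 6.78 and 8.73 CPM and 0.898 and 0.347 CPM. Both subunits were thus lower, 17.2-fold and 12.5-fold (adjusted p = 0.00418 and 0.00351 with edgeR). Npy1r, a neuropeptide Y receptor, had 15.4 and 17.2 CPM in WT and 1.39 and 1.73 CPM in W330R (adjusted p = 0.0115 with edgeR). Bcl11b, a zinc finger transcription factor, Tnfsf15, a TNF family cytokine, and Gm2115 were 12.8-fold, 11.5-fold and 16.4-fold lower. Cd200r4, a CD200 receptor family member, had 71 and 121 counts in WT and 1 and 3 in W330R, a ratio of WT to W330R of 29.7 (95% counting interval 11.4 to 110.0).

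DNMT3A acts on CG sites, so the sequence before the start of some of these genes is shown for context. These are the 250 bases upstream of the RefSeq start (GRCm38.p6) of 3 of the largest increases and 3 of the largest decreases, the first of each for which the RefSeq table gave a single start. The window runs 5′ to 3′ on the strand of the gene, and capitals mark each CG, which reads the same on both strands. The first 3 genes rose in W330R:
Srpx2: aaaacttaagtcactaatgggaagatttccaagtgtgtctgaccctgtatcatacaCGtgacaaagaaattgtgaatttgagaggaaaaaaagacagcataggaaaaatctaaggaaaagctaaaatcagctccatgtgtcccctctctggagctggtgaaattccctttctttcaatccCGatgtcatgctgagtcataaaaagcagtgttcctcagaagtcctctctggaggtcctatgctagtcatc
Sned1: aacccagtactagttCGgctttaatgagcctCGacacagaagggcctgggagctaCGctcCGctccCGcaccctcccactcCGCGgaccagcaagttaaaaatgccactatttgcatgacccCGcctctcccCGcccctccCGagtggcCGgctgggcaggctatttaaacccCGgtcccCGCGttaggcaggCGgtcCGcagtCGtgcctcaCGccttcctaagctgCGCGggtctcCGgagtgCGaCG
Wfdc3: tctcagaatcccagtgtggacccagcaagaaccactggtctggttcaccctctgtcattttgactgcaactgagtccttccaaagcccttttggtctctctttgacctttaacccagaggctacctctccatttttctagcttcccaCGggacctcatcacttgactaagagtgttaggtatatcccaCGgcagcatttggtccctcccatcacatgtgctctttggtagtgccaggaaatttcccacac
The last 3 fell in W330R:
Plcg2: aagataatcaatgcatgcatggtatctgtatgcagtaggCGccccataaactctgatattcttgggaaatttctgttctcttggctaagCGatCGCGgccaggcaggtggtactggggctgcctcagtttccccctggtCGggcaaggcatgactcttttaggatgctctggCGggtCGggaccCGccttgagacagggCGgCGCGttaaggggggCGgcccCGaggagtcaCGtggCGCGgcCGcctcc
Gm2115: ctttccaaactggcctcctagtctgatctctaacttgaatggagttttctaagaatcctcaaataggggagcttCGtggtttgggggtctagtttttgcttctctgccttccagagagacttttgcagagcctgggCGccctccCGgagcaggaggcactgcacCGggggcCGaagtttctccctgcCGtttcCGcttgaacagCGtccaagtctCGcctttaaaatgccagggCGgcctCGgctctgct
Spry1: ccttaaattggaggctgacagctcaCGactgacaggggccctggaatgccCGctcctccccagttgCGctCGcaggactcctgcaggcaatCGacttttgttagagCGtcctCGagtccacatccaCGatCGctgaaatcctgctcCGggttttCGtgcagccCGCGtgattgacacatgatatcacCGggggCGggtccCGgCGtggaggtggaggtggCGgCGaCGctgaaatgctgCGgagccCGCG
The windows lie at chrX:133908175-133908424 (+) for Srpx2, chr1:93235647-93235896 (+) for Sned1, chr2:164743268-164743517 (-) for Wfdc3, chr8:117498025-117498274 (+) for Plcg2, chr7:84528724-84528973 (+) for Gm2115 and chr3:37639697-37639946 (+) for Spry1. Of the genes that rose, Srpx2 and Wfdc3 had 2 CG each in this window, which 29% of the 32851 RefSeq promoters at hand match with 2 or fewer, and Sned1 had 23. The genes that fell had 17 (Plcg2), 11 (Gm2115) and 23 (Spry1), and 37.8% of all promoters had 10 or more. Both directions thus held a promoter with 23 CG, and the counts describe only these 6 windows.

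Transcripts of the BMP and TGF-beta family moved mostly down. Of 26 tested genes of this list, 5 were called lower and 1 higher in the fit of all libraries (against 0.957% and 0.792% of all genes). In the 4 libraries alone 13 of 24 were lower and 6 higher (against 18% and 17.2%), with a median log2 fold change of -0.82 beside 0.0016 over all genes tested. Among ligands, Bmp4, which pushes mesenchymal cells towards fat and bone, had 324 and 310.1 CPM in WT and 60.7 and 63.04 CPM in W330R, 5.13-fold lower (log2 fold change -2.36 ± 0.37, adjusted p = 0.00489 with edgeR). Tgfb3, a TGF-beta ligand, had 177 and 177 CPM in WT and 59.9 and 53.9 CPM in W330R (adjusted p = 0.00434 with edgeR). Among the secreted antagonists, Grem1, which traps BMP ligands, had 136 and 144 CPM in WT and 29.6 and 34.2 CPM in W330R (adjusted p = 0.0347 with edgeR). The ligand Bmp4 and its antagonist Grem1 were thus both lower. Bmper, a BMP-binding regulator, had 11.9 and 12.8 CPM in WT and 5.88 and 4.05 CPM in W330R (adjusted p = 0.0495 with edgeR). The inhibitory SMAD gene Smad7, itself a known TGF-beta target, had 33.02 and 31.7 CPM in WT and 12.98 and 10.8 CPM in W330R (adjusted p = 0.00254 with edgeR). The member called higher was Fstl1, a secreted follistatin-like glycoprotein, with 1776 and 1772 CPM in WT and 3131 and 3065 CPM in W330R (adjusted p = 0.0354 with edgeR).

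Other genes of the same signals were called in the 4 libraries alone. Inhbb, an activin subunit, had 5.20 and 4.32 CPM in WT and 0.408 and 0.578 CPM in W330R, and the TGF-beta-induced matrix gene Tgfbi moved the other way, from 1.41 and 1.47 CPM to 12.2 and 12.5 CPM (adjusted p = 0.000313 and 2.02e-05 with edgeR in the 4 libraries alone, 0.153 and 0.302 in all 22, both named after their values were seen). Pmepa1, a known TGF-beta target that restrains this signal, had 103 and 104 CPM in WT and 35.1 and 34.1 CPM in W330R, and was called in both fits (adjusted p = 0.00149 with edgeR in all 22). Targets of the family thus included genes that fell and, in Tgfbi, a gene that was higher.

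Of 31 tested IGF, FGF and other growth factor genes, 5 were called lower and none higher in the fit of all libraries (against 0.957% and 0.792% of all genes). Alone, 13 of 25 were lower and 8 higher (against 18% and 17.2%, median -0.36). Igfbp7, an IGF-binding protein of the matrix, had 165 and 155 CPM in WT and 69.98 and 76.9 CPM in W330R (adjusted p = 0.0141 with edgeR). Igfbp4 had 46.5 and 47.7 CPM in WT and 14.1 and 10.99 CPM in W330R, and Igfbp3 had 3.61 and 4.94 CPM and 0.572 and 0.347 CPM (adjusted p = 0.0451 and 0.0417 with edgeR). These 3 genes for proteins that bind IGF were thus lower, while Igfbp5 of the same family had 14.4 and 13.1 CPM in WT and 17.8 and 18.9 CPM in W330R (adjusted p = 0.024 with edgeR alone, 0.911 in all 22, named after its values were seen). Igf1 itself, the ligand, had 77.8 and 80.1 CPM in WT and 423 and 437 CPM in W330R, 5.45-fold higher. It was called in the 4 libraries alone (adjusted p = 6.59e-08 with edgeR) and not in the fit of all libraries (log2 fold change 2.45 ± 1.18, adjusted p = 0.424). Pdgfa, a platelet-derived growth factor, had 31.96 and 27.96 CPM in WT and 15.4 and 17.8 CPM in W330R (adjusted p = 0.0347 with edgeR), and 21.3% of its 50-base sequences occur in other gene models. Vegfc, a lymphatic growth factor, had 20 and 38 counts in WT and 3 and 2 in W330R, a ratio of WT to W330R of 7.17 (95% counting interval 2.90 to 22.9).

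The list of ATF4 stress genes, which serve amino acid synthesis, import and the response to their shortage, was lower almost throughout. Of 23 tested, 3 were called lower and none higher in the fit of all libraries (against 0.957% and 0.792% of all genes), and alone 20 of 22 were lower and none higher (against 18% and 17.2%). Their median log2 fold change alone was -0.80 beside 0.0016 over all genes, and the 20 called genes ranged from -1.49 to -0.26. Cth, which makes cysteine, had 21.05 and 20.2 CPM in WT and 7.59 and 6.94 CPM in W330R (log2 fold change -1.50 ± 0.35, adjusted p = 0.0466 with edgeR). Shmt2, the mitochondrial serine hydroxymethyltransferase, had 226 and 225 CPM in WT and 133 and 123 CPM in W330R (adjusted p = 0.0341 with edgeR). Psph, the last enzyme of serine synthesis, had 58.4 and 57.8 CPM in WT and 36.5 and 38.4 CPM in W330R (adjusted p = 0.0137 with edgeR). In these 3 enzymes the groups did not overlap, as in all 254 genes called in the fit of all libraries. The amino acid importer Slc7a5 had 300.1 and 269 CPM in WT and 155 and 160.3 CPM in W330R (adjusted p = 0.0602 with edgeR in all 22, 4.14e-05 alone). The transcript of Atf4, the factor that gives the list its name, had 651 and 657 CPM in WT and 388 and 383 CPM in W330R (adjusted p = 2.75e-06 with edgeR alone, 0.22 in all 22, named after its values were seen). The members not called alone were Gdf15 and Slc7a3.

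Collagen genes moved both ways. Of 37 tested, 3 were called higher and 1 lower in the fit of all libraries (against 0.792% and 0.957% of all genes). Alone, 12 of 30 were higher and 12 lower (against 17.2% and 18%), with a median of -0.14. Col6a1 and Col6a2, chains of the beaded filament collagen VI, had 909.9 and 908 CPM and 533 and 531 CPM in WT and 1592 and 1583 CPM and 1011 and 973 CPM in W330R. These chains were 1.75-fold and 1.86-fold higher (adjusted p = 0.0471 and 0.0428 with edgeR). Col5a3, a minor fibril collagen, had 38.5 and 38.9 CPM in WT and 133 and 134 CPM in W330R (adjusted p = 0.0189 with edgeR). Col12a1, which decorates fibrils, had 904 and 885 CPM in WT and 435 and 429 CPM in W330R (adjusted p = 0.00434 with edgeR). Col1a1, the main fibril chain, had 7530.3 and 6661 CPM in WT and 4027 and 4107 CPM in W330R (adjusted p = 3.78e-05 with edgeR alone, 0.612 in all 22).

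Of 37 tested genes of the other matrix list, 1 was called in each direction in the fit of all libraries, Mmp14 higher and Thbs1 lower (against 0.792% and 0.957% of all genes). Alone, 9 of 32 were higher and 15 lower (against 17.2% and 18%). Mmp14, a membrane-bound collagenase, had 419.5 and 406 CPM in WT and 651 and 646 CPM in W330R (adjusted p = 0.039 with edgeR). Has2, a hyaluronan synthase, had 43.9 and 44.3 CPM in WT and 12.7 and 11.7 CPM in W330R, and the collagen-binding proteoglycan gene Fmod had 78.5 and 75.96 CPM and 12.8 and 12.7 CPM (adjusted p = 3.98e-06 and 4.64e-07 with edgeR alone, 0.215 and 0.468 in all 22, Fmod named after its values were seen). Of 18 tested smooth muscle contractile genes none was called in the fit of all libraries, while alone 2 of 15 were higher and 6 lower (against 17.2% and 18%). Tnnt2, the cardiac troponin T gene of the myogenic list, was called lower in both fits, with 5.99 and 5.92 CPM in WT and 0.898 and 0.578 CPM in W330R (adjusted p = 0.0442 with edgeR in all 22).

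Regulators of adipogenesis moved both ways. Of 32 tested, Zfp423 was called higher and Bmp4 lower in the fit of all libraries (against 0.792% and 0.957% of all genes). Alone, 13 of 31 were higher and 11 lower (against 17.2% and 18%, median 0.037). Zfp423, a zinc finger factor that commits preadipocytes, had 6.25 and 6.32 CPM in WT and 17.6 and 15.8 CPM in W330R, 2.66-fold higher (log2 fold change 1.41 ± 0.18, adjusted p = 0.0015 with edgeR). Ebf1, an early B cell factor family member also active in preadipocytes, had 57.9 and 54.2 CPM in WT and 139.7 and 145 CPM in W330R (adjusted p = 2.22e-06 with edgeR alone, 0.126 in all 22). Pparg, the nuclear receptor that drives fat cell formation, had 28.4 and 29.1 CPM in WT and 26.7 and 32.4 CPM in W330R (log2 fold change 0.038 ± 0.28, adjusted p = 1.00 with edgeR in all 22, 0.805 alone). Cebpa, a partner of Pparg in this process, had 15.5 and 18.03 CPM in WT and 8.57 and 10.3 CPM in W330R, and the early factor Cebpb had 33.4 and 31.1 CPM and 15.5 and 14.5 CPM (adjusted p = 0.00325 and 0.000112 with edgeR alone, 0.296 and 0.207 in all 22). Pparg, Cebpa and Cebpb were named after their values were seen. The groups lay apart, higher in W330R for Zfp423 and Ebf1 and lower for Cebpa and Cebpb, and overlapped for Pparg.

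Of 26 tested mature adipocyte genes, 1 was called higher and none lower in the fit of all libraries (against 0.792% and 0.957% of all genes). Alone, 6 of 14 were higher and none lower (against 17.2% and 18%, median 0.24), and the other members were not tested there. Dgat2, an enzyme of the last step of triglyceride synthesis, had 15.4 and 13.7 CPM in WT and 41.3 and 41.4 CPM in W330R (adjusted p = 0.03 with edgeR). Plin4, a lipid droplet coat protein, had 218 and 209.9 CPM in WT and 458 and 472 CPM in W330R, and Lipe, the hormone-sensitive lipase, had 7.93 and 10.7 CPM and 17.6 and 18.6 CPM (adjusted p = 1.14e-06 and 0.00279 with edgeR alone, 0.148 and 0.193 in all 22). The defining markers of fat cells stayed at or near 0 in both genotypes. Plin1, Cidec, Lep and Cfd had 0 counts in all 4 libraries, and the summed level of the 6 adipocyte markers was 2.82 and 4.10 CPM in WT and 5.39 and 4.74 CPM in W330R.

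**Figure D4:**
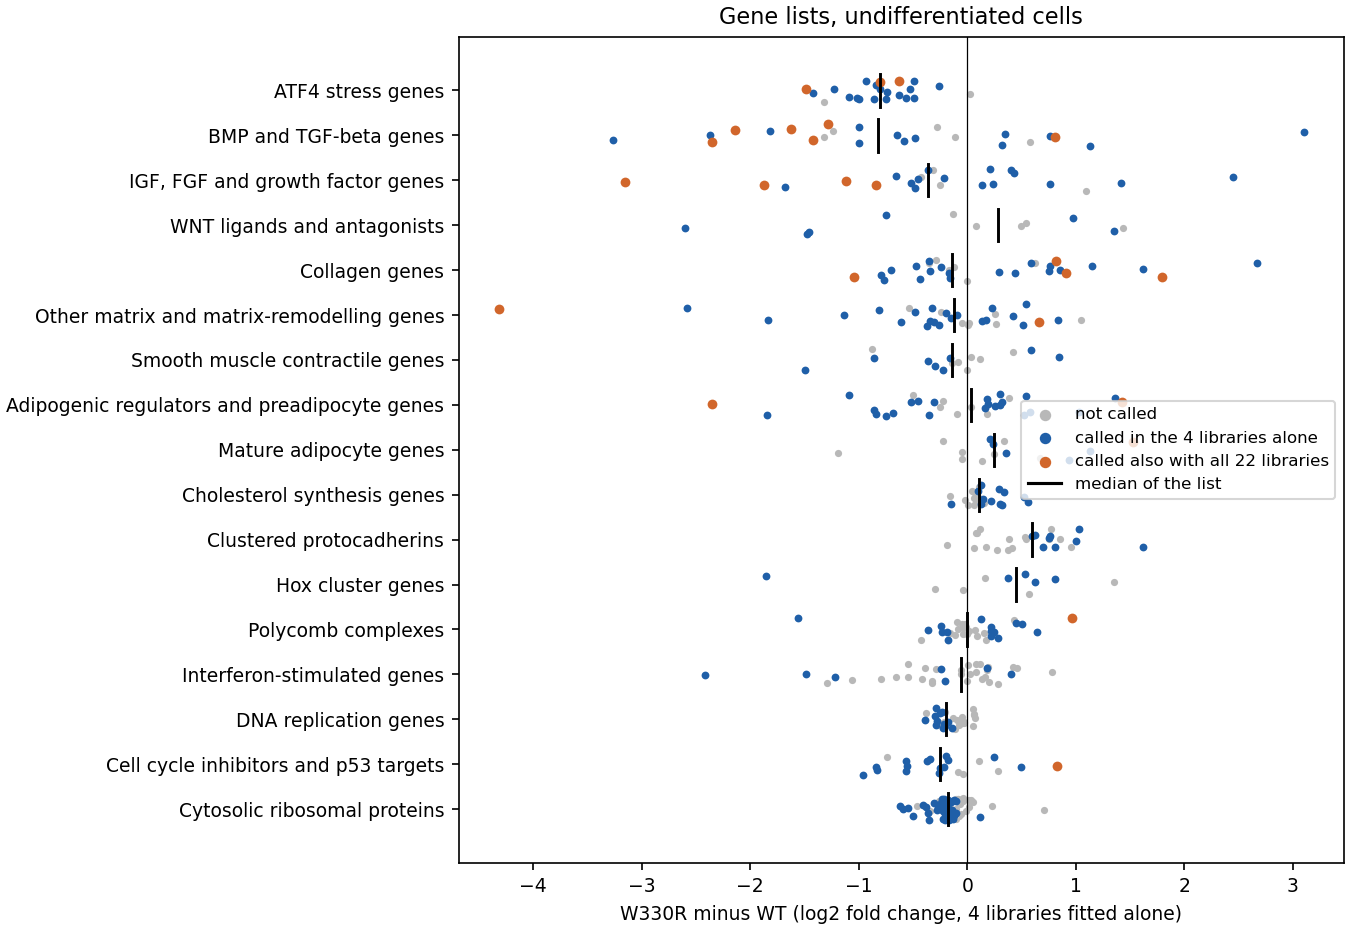
Each point is a gene of the list on the y axis, at its log2 fold change of W330R over WT in the 4 undifferentiated libraries alone (x axis), and the black bar is the median over all its tested genes. Genes with a genotype at or under 3 counts in both libraries are not drawn. The ATF4 stress genes and the BMP and TGF-beta genes have their medians at -0.80 and -0.82, the clustered protocadherins at 0.60, and the collagens hold called genes on both sides.

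Among developmental signals, no WNT gene was called in the fit of all libraries (0 of 18 with edgeR, against 0.792% of all genes higher and 0.957% lower). Alone, 3 of 12 were higher and 4 lower (against 17.2% and 18%). Rspo3, which strengthens WNT signals, had 41.03 and 44.5 CPM in WT and 107 and 112 CPM in W330R, and Sfrp1, a secreted WNT antagonist, had 29.7 and 31.4 CPM and 11.4 and 10.5 CPM (adjusted p = 2.75e-06 and 3.14e-05 with edgeR alone, 0.236 and 0.157 in all 22). The related Rspo2 had 0 counts in both WT libraries and 30 and 11 in W330R, at least 9.36-fold higher against a floor of 3 counts per library. Of 9 Hedgehog genes, Gas1 was called higher in the fit of all libraries, and alone 4 were higher and 2 lower (against 17.2% and 18%). Gas1, a co-receptor for Hedgehog ligands, had 392 and 381 CPM in WT and 1024 and 1038 CPM in W330R (adjusted p = 0.037 with edgeR). Gli2, a transcription factor of the pathway, had 5.55 and 5.30 CPM in WT and 1.06 and 1.39 CPM in W330R (adjusted p = 0.000717 with edgeR alone, 0.156 in all 22). The co-receptor and the factor thus lay on opposite sides.

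Genes of DNA replication and mitosis differed little in size. For the lists that follow, the shares of all genes were 0.792% higher and 0.957% lower in the fit of all libraries, and 17.2% and 18% alone. Of 30 DNA replication genes none was called in the fit of all libraries, and alone 12 were lower and none higher (median -0.19). None of 28 mitosis genes was called in the fit of all libraries, and alone 5 were higher and 2 lower (median 0.049), together 25% against 35.3% of all genes. Of 23 cell cycle inhibitors and p53 targets, Sesn1 was called higher in the fit of all libraries, and alone 3 of 21 were higher and 13 lower. Sesn1, a stress-induced sestrin, had 31.7 and 33.4 CPM in WT and 56.7 and 58.4 CPM in W330R (adjusted p = 0.0137 with edgeR). Gadd45a, another stress gene, had 54.7 and 62.2 CPM in WT and 32.5 and 32.96 CPM in W330R (adjusted p = 0.0517 with edgeR in all 22, 0.000129 alone). None of 84 cytosolic ribosomal protein genes was called in the fit of all libraries, whereas alone 52 of 83 were lower and 1 higher, with a small median of -0.18. Without the ribosomal and mitochondrial genes 4186 genes were called in the 4 libraries alone.

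Among chromatin and developmental genes, few passed in the fit of all libraries. In that fit 0.792% of all genes were called higher and 0.957% lower, and in the 4 libraries alone 17.2% and 18%. Of 33 Polycomb genes, Ezh1 was called higher there, and alone 10 were higher and 6 lower. Ezh1, a methyltransferase of Polycomb repressive complex 2, had 36.7 and 38.5 CPM in WT and 73.7 and 73.1 CPM in W330R (adjusted p = 0.0141 with edgeR). Of 16 listed enzymes that add or remove histone H3 methylation, none was called in the fit of all libraries. Alone, 5 were higher and none lower, by 0.16 to 0.31 on the log2 scale. These were the methyltransferase genes Setd2 and Kmt2c and the demethylase genes Kdm4a, Kdm5a and Kdm6a. Of 40 genes of other homeobox families tested alone, 6 were higher and 7 lower, together 32.5% against 35.3% of all genes. Of 26 forkhead genes, Foxp2 was called higher, with 1.41 and 2.32 CPM in WT and 4.25 and 5.20 CPM in W330R (adjusted p = 0.0466 with edgeR), and alone 4 of 23 were higher and 7 lower. None of 20 SOX, T-box and GATA genes was called in the fit of all libraries, and alone 3 of 14 were higher and 1 lower. Together 47.8% of the forkhead genes and 28.6% of the SOX, T-box and GATA genes were called alone, against 35.3% of all genes.

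Of 39 Hox genes, which set position along the body axis, 14 passed the filter on low counts. None was called in the fit of all libraries (against 0.792% of all genes higher and 0.957% lower). Alone, 4 of 10 were higher and 1 lower (against 17.2% and 18%). Hoxa2 had 18.5 and 20.8 CPM in WT and 35.8 and 33.1 CPM in W330R, and Hoxc13 had 2.64 and 2.67 CPM and 0.653 and 0.81 CPM (adjusted p = 0.000399 and 0.00488 with edgeR alone, 0.455 and 0.326 in all 22). Clustered protocadherins, cell adhesion genes whose promoter choice is tied to DNA methylation, were not called in the fit of all libraries (0 of 38 with edgeR). Alone, 9 of 25 were higher and none lower (against 17.2% and 18% of all genes). Their median was 0.60 beside 0.0016 over all genes, and 24 of 25 had a positive log2 fold change. Pcdhb17 had 15.3 and 13.6 CPM in WT and 26.05 and 22.2 CPM in W330R (adjusted p = 0.0028 with edgeR alone, 0.0708 in all 22). The genes of this cluster share sequence and exons, 44.4% of the 50-base sequences for Pcdhga6, so the split of reads among them is uncertain.

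Of 30 tested imprinted genes, Peg12 was called lower and none higher in the fit of all libraries (against 0.957% and 0.792% of all genes). Alone, 4 of 25 were higher and 6 lower (against 17.2% and 18%). Peg12 had 15 and 29 counts in WT and 1 and 3 in W330R, a ratio of WT to W330R of 6.80 (95% counting interval 2.47 to 26.04). Peg10, a retrotransposon-derived imprinted gene, had 31.4 and 31.2 CPM in WT and 8.33 and 7.63 CPM in W330R (adjusted p = 9.93e-06 with edgeR alone, 0.172 in all 22). Germline genes, of which many are silenced by promoter methylation in somatic cells, stayed low, and 11 of 40 in the file passed the filter. None of them was called in either fit with edgeR. No gene of the interferon-stimulated list was called in the fit of all libraries (0 of 46 with edgeR), and alone 2 of 35 were higher and 5 lower (against 17.2% and 18%). Ifi47, which was called higher in both fits, is interferon-inducible but not on this list.

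Of the remaining lists, glutathione and NRF2 genes had 1 of 20 called lower, the glutathione synthesis gene Gclm, with 86.5 and 85.8 CPM in WT and 60.3 and 56.7 CPM in W330R (adjusted p = 0.0369 with edgeR), and alone 7 were higher and 7 lower. No cholesterol synthesis gene was called in the fit of all libraries (0 of 23 with edgeR), and alone 11 were higher and 1 lower, with a median of 0.11. None of 20 osteoblast and chondrocyte genes, 15 chemokine and cytokine genes and 13 mitochondrially encoded genes was called in the fit of all libraries. Alone, 5 and 4 of 14, 3 and 4 of 12, and 1 and 0 of 13 were higher and lower. For all lists of this paragraph, the shares of all genes were 0.792% higher and 0.957% lower in the fit of all libraries, and 17.2% and 18% alone. The abundant cytokine antagonist gene Il1rn had 535 and 533 CPM in WT and 1691 and 1709 CPM in W330R (adjusted p = 6.59e-08 with edgeR alone, 0.176 in all 22).

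For the lists with no call in the fit of all libraries, the members at an unadjusted p under 0.05 with edgeR and the calls by DESeq2 in the same libraries were counted as well. Over all 14520 genes tested, 1793 had such a p and DESeq2 called 528. Of 38 clustered protocadherins 13 had such a p and DESeq2 called 4 higher, and of 18 WNT genes 6 had such a p and DESeq2 called 1 in each direction. Of 17 genes of the DNA methylation machinery 5 had such a p and DESeq2 called 1 higher. Of 84 ribosomal protein genes 7 had such a p, and DESeq2 called none. Osteoblast and chondrocyte genes had 3 (DESeq2 called 1 in each direction), chemokine and cytokine genes 2 (1 higher) and smooth muscle genes 2 (1 lower). Hox genes and SOX, T-box and GATA genes had 2 each and cholesterol synthesis genes and mesenchymal stromal markers 1 each, with none called by DESeq2. Interferon-stimulated genes had 0 and DESeq2 called 1 lower. The replication, mitosis, mitochondrial and germline lists and that of histone H3 methylation enzymes had 0 by both counts.

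The labelled cell type was checked by its markers. The 8 mesenchymal stromal markers were all detected, with a summed level of 20544 and 19369 CPM in WT and 16829 and 16555 CPM in W330R. Of the 8, none was called in the fit of all libraries, and alone 5 of 7 were higher and 2 lower (against 17.2% and 18% of all genes). Thy1, a stromal surface marker, had 21.1 and 19.15 CPM in WT and 72.3 and 73.9 CPM in W330R (adjusted p = 1.76e-06 with edgeR alone, 0.294 in all 22). Smooth muscle markers summed to 1241 and 1238 CPM in WT and 694 and 663 CPM in W330R, nearly all from Acta2, with Cnn1 and Myh11 at 0. Chondrocyte markers summed to 795 and 776 CPM in WT and 486 and 476 CPM in W330R, all from Col2a1, with Acan at 0. Acta2 and Col2a1 were called lower in the 4 libraries alone and not in the fit of all libraries. Osteoblast markers summed to at most 0.356 CPM. The skeletal muscle factors Myod1, Myog and Myf5 had 0 counts in all 4 libraries. Leukocyte markers summed to 7.12 to 9.31 CPM, with 3 of 4 in the file, and epithelial markers to 2.45 to 5.67 CPM, with Epcam at 0. Endothelial markers summed to 7.04 and 5.65 CPM in WT and 7.10 and 16.1 CPM in W330R, nearly all from Pecam1, which was higher in W330R replicate 2 alone. Their part in the results was not tested.

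On days 2 to 6 of differentiation the same genes were compared between W330R and WT in the 12 later libraries of these genotypes. The calls before differentiation did not use these libraries as samples, but the fit of all 22 libraries took its spread from them as well. A gene with little spread on those days was thus easier to call in both stages. The shares of all genes do not allow for this. Averaged over these days, 29.0% of all genes were called, 14.3% higher in W330R and 14.8% lower. Of the 115 genes higher before differentiation, 27 were called higher and 25 lower, and 58 of 115 had the same sign. Of the 139 lower before differentiation, 22 were called lower and 34 higher, and again 58 had the same sign. The median log2 fold change on days 2 to 6 was 0.020 for the first set and 0.097 for the second, beside 1.18 and -1.498 before differentiation. The difference between the effect before differentiation and the mean effect on days 2 to 6 was called for 74 of the 115 and 113 of the 139 genes, against 6.74% of all genes. The choice of the genes used the effect before differentiation, which enters this difference. Of the 2051 genes called higher in the 4 libraries alone, 414 were called higher on days 2 to 6 and 350 lower. Of the 2143 called lower alone, 395 were called lower on those days and 381 higher. Whether the same or the opposite direction was more frequent thus depended on the fit.

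**Figure D5:**
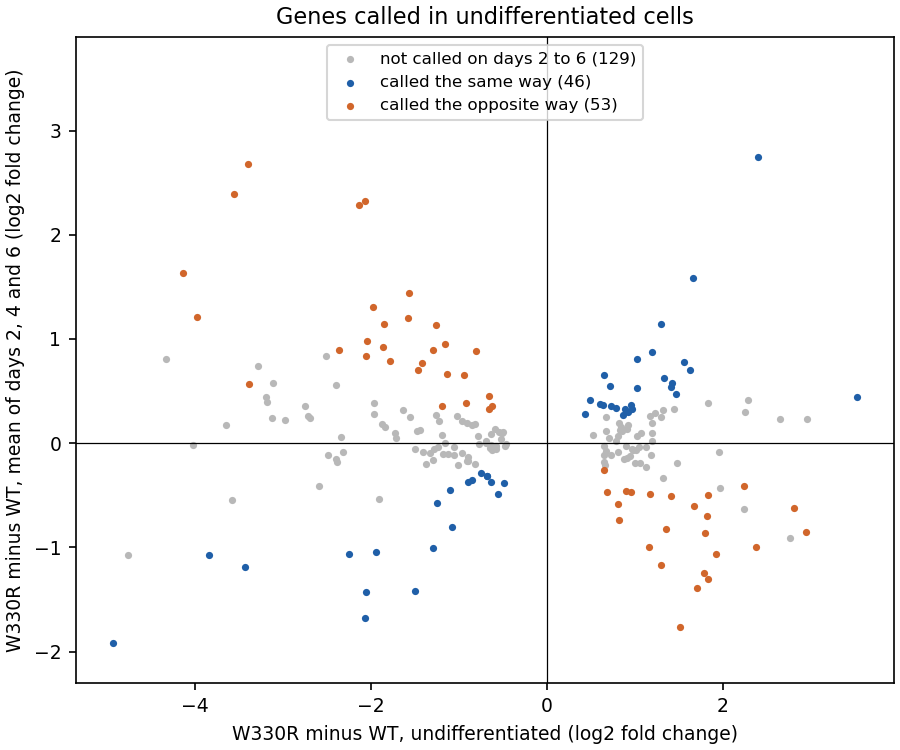
Each point is 1 of 228 genes called in undifferentiated cells, leaving out those with a genotype at or under 3 counts in both libraries. The x axis is the log2 fold change of W330R over WT before differentiation and the y axis its mean on days 2, 4 and 6. Of these genes 46 were called the same way on days 2 to 6 (blue), 53 the opposite way (orange) and 129 not (grey).

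Genes that were called in both stages with opposite sign included members of the lists above. Grem1 was lower in W330R before differentiation (-2.13) and higher on days 2 to 6 (2.28), with a difference of -4.42 ± 0.55 (SE, log2 scale, adjusted p = 0.000534 with edgeR). For Bmp4 the effects were -2.36 and 0.89, and for Pmepa1 they were -1.57 and 1.20. Dgat2 was higher before differentiation (1.51) and lower on days 2 to 6 (-1.76), with a difference of 3.27 ± 0.37 (adjusted p = 0.000283 with edgeR). The effect of W330R on G0s2 was 1.84 before and -1.30 on days 2 to 6, on Aoc3 2.37 and -0.997, and on Zfp423 1.41 and -0.50. These fat-related genes were thus higher in W330R before differentiation and lower after it began. The lowest p for the difference in the positive direction belonged to Fam117a, Zdhhc14, Pxmp4, Aoc3 and Fam107a, and in the negative direction to Armcx4, Pmepa1, Nxn, Ppm1e and Naf1. Armcx4 had 17.2 and 19.6 CPM in WT and 3.10 and 2.43 CPM in W330R before differentiation, and its effect on days 2 to 6 was not called (0.26, adjusted p = 0.0522 with edgeR).

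A smaller set of the genes called in the fit of all libraries moved the same way at both times. Of these, 8 were named after their values were seen. Dusp4, a phosphatase that switches off MAP kinases, had 56.1 and 59.2 CPM in WT and 14.2 and 13.5 CPM in W330R, with effects of -2.05 before and -1.43 on days 2 to 6. Plscr2, a phospholipid scramblase, had 10.4 and 10.3 CPM in WT and 31.8 and 33.7 CPM in W330R, with effects of 1.66 and 1.58. For Mmp14 the effects were 0.65 and 0.65, and for Pcsk6 -3.43 and -1.19. The effect on Pcsk6 was larger before differentiation (difference -2.24 ± 0.32, adjusted p = 0.00118 with edgeR), and that on Mmp14 and Plscr2 was not called different (adjusted p = 1.00 and 0.938). Helb, a DNA helicase gene, had 99.1 and 101 CPM in WT and 203 and 203 CPM in W330R, with effects of 1.02 and 0.81. The other 3 were Trabd2b, Garnl3 and Phf21b, with effects of -2.06, 1.20 and 2.41 before differentiation and -1.67, 0.87 and 2.75 after.

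Among genes with a mean of at least 20 CPM, large differences in the 4 libraries alone included genes that the fit of all libraries did not call, all named after their values were seen. Pgm5, a phosphoglucomutase-like protein of adhesion sites, had 57.5 and 58.7 CPM in WT and 292 and 302 CPM in W330R, 5.11-fold higher (adjusted p = 6.59e-08 with edgeR alone, 0.0906 in all 22). Tmem252, a transmembrane protein gene, had 14.6 and 12.7 CPM in WT and 87.05 and 88.4 CPM in W330R (adjusted p = 5.36e-07 with edgeR alone, 0.111 in all 22). Cp, ceruloplasmin, the copper-carrying ferroxidase, had 129.7 and 131 CPM in WT and 28.01 and 33.5 CPM in W330R, 4.24-fold lower (adjusted p = 1.36e-06 with edgeR alone, 0.337 in all 22). The groups did not overlap in any of these genes, which their choice required. The differences were many times those between the 2 libraries of a genotype. Serpinb9b, a serine protease inhibitor gene, was lower in both fits, with 305 and 301 CPM in WT and 52.8 and 54.02 CPM in W330R (adjusted p = 0.00434 with edgeR in all 22).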

How the data were processed

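RNA was sequenced from total RNA (TriZol, NEBNext Ultra II), and the authors deposited whole counts per gene symbol for 30170 genes, without normalization. Kallisto, DESeq2 1.40 and the build GRCm39 are named in the submitters' processing notes, with no role or order, and the counts may therefore be rounded estimates. The annotation and the use of strand are not given in the sources used here, so reads of overlapping genes may not be told apart. The paper of the series describes other experiments. Samples were grouped by genotype and stage from their labels. For the double mutant the labels give R181E where column names give R181A, and its libraries enter the filter, normalization and estimate of the spread of the fit of all 22 libraries and the description of the later conditions.

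Genes were kept by filterByExpr (minimum count 10, minimum total 15), normalized by TMM and fitted by edgeR 4.0.16 (quasi-likelihood) in R 4.3.3, with 1 mean for each of 11 conditions. SE is the log2 fold change divided by the square root of F. A permutation test of 2 against 2 libraries cannot go below p = 0.333, so none was used. Named genes were the methyltransferases, the 12 largest increases and 12 largest decreases among called genes with at least 2 CPM and groups that do not overlap, up to 4 members with the lowest p in each list, and the 5 lowest p each way for the difference between stages. The members and lists were chosen with earlier results of these data known. Alternatives were DESeq2 1.42.0, RLE, no filter, a replicate block, subsets of libraries and a fold limit. Promoters came from RefSeq (GRCm38.p6), matched by symbol or a unique synonym. Of the called genes, 78.3% (higher) and 74.8% (lower) matched, so a comparison of promoter CpG content by call was void. The share of 50-base sequences found in other genes was taken from GENCODE on GRCm38. A few genes that this rule names are not reported here.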

Additional observations from a re-analysis of the deposited data

Results flagged for a closer look

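The effect of W330R before differentiation was set against its mean effect on days 2, 4 and 6, by the contrast of the difference in the edgeR fit of all 22 libraries. It was called for 187 of the 254 genes called before differentiation, a choice that used the effect before differentiation. It was also called for 50 of the 102 genes named in the text, 46 of them called before differentiation. No value is given for Vegfc and Peg12, which had 3 or fewer counts in both W330R libraries, and the other 48 follow. Values in parentheses are the effect before differentiation minus that on days 2 to 6, on the log2 scale.

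Of the genes with a more positive effect before differentiation, those called then in the fit of all libraries and called the opposite way on days 2 to 6 were Gm11870 (3.43), Aoc3 (3.37), Dgat2 (3.27), G0s2 (3.14), Col5a3 (3.04), Gpm6b (2.99), Zdhhc14 (2.67), Cml1 (2.65), Pxmp4 (2.46), Fam117a (2.18), Zfp423 (1.92) and Col6a2 (1.36). The others were Fam107a (3.08), Srpx2 (2.41), Lipe (2.24), Wfdc3 (2.04), Plin4 (1.99), Cebpa (1.37), Ezh1 (1.02), Col6a1 (0.89), Fstl1 (0.73) and Sesn1 (0.63).

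Of the genes with a more negative effect before differentiation, those called then in the fit of all libraries and called the opposite way on days 2 to 6 were Npy1r (-6.07), Tnfsf15 (-5.94), Cacna1c (-5.77), Grem1 (-4.42), Bmp4 (-3.25), Ppm1e (-2.998), Pmepa1 (-2.78), Nxn (-1.80) and Naf1 (-1.60). The others were Thbs1 (-5.13), Gm2115 (-3.999), Bcl11b (-3.82), Plcg2 (-3.68), Igfbp3 (-3.57), Serpinb9b (-3.34), Tnnt2 (-3.20), Gli2 (-3.08), Cacnb2 (-3.03), Armcx4 (-2.98), Spry1 (-2.77), Pcsk6 (-2.24), Tgfb3 (-1.96), Smad7 (-1.57), Pdgfa (-1.03), Igfbp7 (-1.02) and Col12a1 (-0.93). Some of these genes were near the floor after differentiation began. Over the 18 later libraries Tnfsf15 had 0 to 7 counts, Plcg2 0 to 10 and Bcl11b 1 to 26. Their effects on days 2 to 6, the opposite call of Tnfsf15 and the sizes of their differences thus rest on few counts.

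Of these genes, Fam107a, Pcsk6 and Spry1 were called the same way in both stages, with a larger effect before differentiation, and Gli2, Lipe, Plin4 and Cebpa were called before differentiation in the 4 libraries alone and not in the fit of all libraries. On days 2 to 6 Gli2 was called higher and Lipe and Plin4 lower, opposite to their effect before differentiation, and Cebpa was called lower, as before. The undifferentiated libraries differ from the later ones in column naming and in spread between replicates, so that stage and those properties cannot be told apart.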

How the results depend on the processing

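No gene called in the fit of all 22 libraries changed sign under any of the alternatives, and no scaling moved the median of all genes by as much as 0.02 (log2). Against 254 calls in the main fit, RLE normalization gave 246, no filter on low counts 257, the 16 WT and W330R libraries 288, and a fold of at least 1.5 gave 241. DESeq2 on all 22 libraries called 528 genes, of which 108 were called the same way on days 2 to 6, 133 the opposite way and 358 differed from days 2 to 6. With the replicate number as a block in all 22 libraries, 392 genes were called, of which 91 were called the same way and 104 the opposite way on days 2 to 6, and 277 differed from days 2 to 6. Undifferentiated libraries with the same number deviated from their group means with a correlation of 0.030 over all genes tested. The numbers thus showed no pairing over the genes as a whole. Genes with few counts enter this value, which cannot exclude an effect shared by part of the genes. The 4 undifferentiated libraries alone gave 4194 calls. With the replicate block in place they gave 3953, of which 3842 were among the 4194 in the same direction, and with DESeq2 2497, of which 2495 were. Alternatives chosen after seeing the data gave 4196 calls alone with RLE normalization, 4186 alone without ribosomal and mitochondrial genes, and 3161, 2922, 2442 and 2628 alone without WT replicate 1, WT replicate 2, W330R replicate 1 and W330R replicate 2. In the fit of all libraries, leaving out 1 of the 4 libraries gave 48 to 58 calls, 10 to 14 called the same way on days 2 to 6, 15 to 21 the opposite way and 39 to 46 that differed. Each such fit leaves a genotype with 1 library, assumed to vary like the rest. With days 2 to 6 fitted separately, 42 genes were called the same way and 55 the opposite way, against 49 and 59. Of values of named genes under the alternatives, 2305 kept their direction and side of the threshold, 754 passed it only there and 190 no longer passed it, with none in the opposite direction. Promoter CpG content by call was not run, since fewer than 80% of called genes had a promoter in the table at hand. A floor of 3 counts per library corresponds to 0.199 CPM on the mean of the WT libraries and 0.296 CPM on that of W330R, and differences below that level were not detectable at this depth.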
